A study of Homo sapiens with 6 samples.

Results

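The 29 genes described here make, take up, move and sense cholesterol. They were chosen by name and function, though with earlier results of these data known. They comprise 18 enzymes that build cholesterol from acetyl-CoA, 4 genes of the SREBP system that senses sterols, and 4 genes of cholesterol transport and storage. The rest are the nuclear receptor gene NR1H2 (liver X receptor beta) with ABCA1 and MYLIP, which are known targets of the liver X receptors (LXR). All 29 were found among the 58288 genes of the data, and 28 of them were among the 12634 genes that were tested. For a test the mean over the libraries had to reach 1 FPKM (fragments scaled to transcript length and library size). ABCA1 lay under that filter.

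The cells were K562, a human erythroleukemic cell line, carrying a stably integrated, 3xFLAG- and HA-tagged mutant of the transcription factor MYB. In 2KR-MYB the lysines to which SUMO is attached are replaced by arginine. In ANAA-MYB a SUMO-binding motif is mutated. The study asked how the SUMO status of MYB alters the genes downstream of it. Both groups were grown in 200 µg/ml G418 and transfected with the siRNA si2992 against endogenous MYB, and RNA was taken 24 h later. There were 3 biological replicates of the 2KR-MYB rescue and 3 of the ANAA-MYB rescue. Each mutant was represented by 1 clone, so the mutation and the clone cannot be told apart. Whether the replicates were separate cultures is not given in the sources used here, so the p-values measure only the spread between these libraries.

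Cells make cholesterol from acetyl-CoA through mevalonate, farnesyl diphosphate, squalene and lanosterol. The pathway is set by the SREBP transcription factors: when sterols are scarce, SCAP escorts the SREBP precursors from the endoplasmic reticulum to the Golgi, where proteases release the active factor, and when sterols are plentiful, INSIG proteins hold SCAP back. SREBP activates most genes of the pathway together with the CCAAT-binding factor NF-Y, and INSIG1 is itself such a target. In the opposite direction, LXR is activated by oxysterols and turns on cholesterol efflux through ABCA1 and the loss of lipoprotein receptors through MYLIP. Erythroid cells need sterols for their membranes.

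Promoter sequence was given by RefSeq (GRCh38.p14) for 26 of the 29 genes, as a window from 250 bases before to 50 bases after the start. A sterol regulatory element with the letters TCACNCCAC, on either strand, was in 1 of the 26 windows (3.85%, that of SREBF2) and in 1.15% of all 27305 promoter windows. The letters CCAAT, the core of the NF-Y site, were in 18 of the 26 (69.2%) and in 35.7% of all promoters. MYB recognition letters, CAACNG or TAACNG, were in 6 of the 26 (23.1%, namely HSD17B7, MSMO1, MVK, MYLIP, NPC1 and STARD4) and in 46.3% of all promoters. A match describes letters in this window and is not a measured binding site. A missing match says nothing of sites elsewhere, nor of sites in the window with other letters. The stretches below run 5′ to 3′ on the strand of the gene, lie wholly before its start, and carry in capitals each match to the 4 patterns on either strand (ATTGG is CCAAT read on the other strand), and no matches overlap in them. SREBF2 is shown for its sterol regulatory element and CCAAT, INSIG1, HMGCS1, HSD17B7 and NPC1 because they passed the test described later, and FDPS as the member with the highest mean level, with 3 CCAAT matches.
SREBF2 (chr22:41832960-41833015, plus strand): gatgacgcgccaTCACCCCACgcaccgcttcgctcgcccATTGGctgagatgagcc
INSIG1 (chr7:155297696-155297724, plus strand): cgccggcctcccATTGGttgcggccgcct
HMGCS1 (chr5:43313496-43313579, minus strand): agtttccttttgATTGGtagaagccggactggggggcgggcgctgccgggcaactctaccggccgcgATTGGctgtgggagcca
HSD17B7 (chr1:162790622-162790697, plus strand): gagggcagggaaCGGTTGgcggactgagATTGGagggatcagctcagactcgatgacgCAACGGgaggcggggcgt
NPC1 (chr18:23586690-23586719, minus strand): cacggccagaaaCCGTTGgcacaactccac
FDPS (chr1:155308678-155308831, plus strand): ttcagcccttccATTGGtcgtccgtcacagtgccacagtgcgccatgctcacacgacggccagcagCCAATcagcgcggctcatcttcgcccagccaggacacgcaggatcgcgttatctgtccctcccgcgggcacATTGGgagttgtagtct
In these stretches the SREBF2 element spans 133 to 125 bases before the start, and its CCAAT match lies 106 to 102 bases before it. HSD17B7 holds 2 MYB matches with 1 CCAAT match between them, whereas the NPC1 stretch holds a MYB match alone.

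The 10 erythroid markers checked were each at 1 FPKM or more in every library, and their summed level was 1796 to 1915 FPKM in the 2KR-MYB rescue and 2012 to 2409 in the ANAA-MYB rescue. Of the 10, 4 passed the threshold used below, 3 of them lower in the 2KR-MYB rescue (GATA1, KLF1 and TFRC) and 1 higher. Of 10 markers of other blood lineages, 4 were at 1 FPKM or more in every library, MS4A1, PF4 and GP9 were at 0 in all of them, and their summed level was 40.8 to 47.0 FPKM in the 2KR-MYB rescue and 69.2 to 96.0 in the ANAA-MYB rescue. The part of these differences in the values of the cholesterol genes was not tested. MYB itself was at 69.0, 61.2 and 67.5 FPKM in the 2KR-MYB libraries and at 53.6, 55.3 and 62.0 in the ANAA-MYB libraries. These values overlapped (log2 difference 0.21, adjusted p = 0.062 with limma), and they do not tell the integrated MYB from the endogenous one, so they do not check the knockdown. The summed FPKM of a library ranged from 579920 to 601877 in the 2KR-MYB rescue and from 583555 to 633662 in the ANAA-MYB rescue, and the read depth is unknown.

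Most of the pathway was expressed well above the filter in both rescues. Mean levels over the 6 libraries were highest for FDPS (97.5 FPKM), FDFT1 (96.3), SQLE (78.5) and EBP (73.7), which make farnesyl diphosphate, squalene, squalene epoxide and an isomerised sterol. The lowest tested member was TM7SF2, a sterol reductase, at 4.56 FPKM. ABCA1, the cholesterol efflux pump, was at 0.031, 0.026 and 0.057 FPKM in the 2KR-MYB libraries and at 0.037, 0.043 and 0.035 in the ANAA-MYB libraries, so it was near 0 in every one. In the plot of levels the differences between genes were far wider than those between the rescues.

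**Figure D1:**
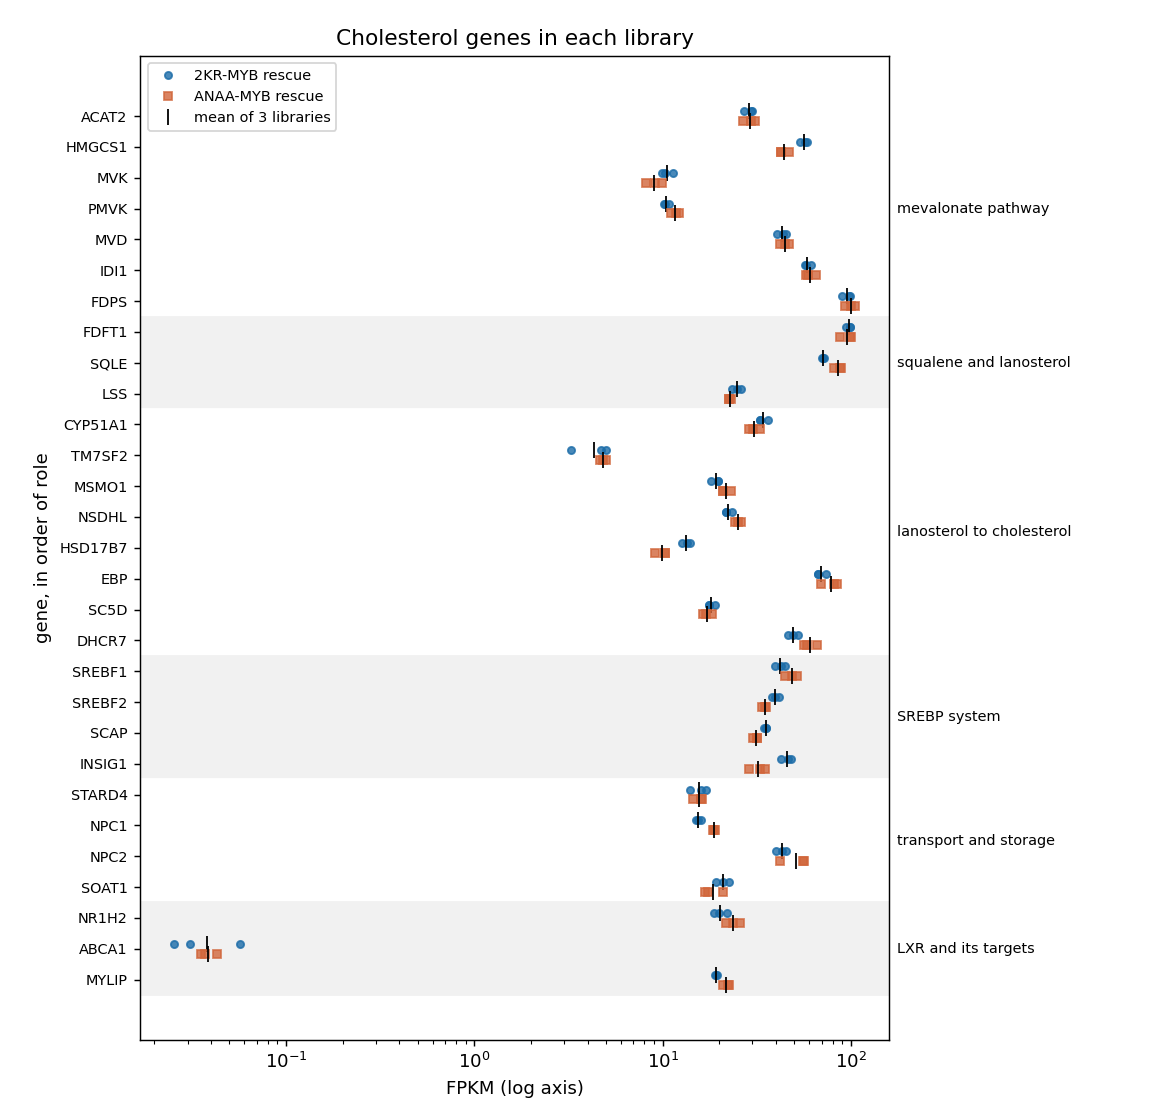
FPKM of the 29 genes (log axis) in the 3 2KR-MYB rescue libraries (circles) and the 3 ANAA-MYB rescue libraries (squares), with black ticks at the mean of each rescue and genes ordered by role. Means over the 6 libraries run from 0.038 for ABCA1 to 97.5 for FDPS, and HMGCS1, INSIG1 and HSD17B7 show all circles to the right of all squares.

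The 2KR-MYB and ANAA-MYB rescues differed in 5 of the 28 tested members, and not in one direction. HMGCS1, INSIG1 and HSD17B7 were higher in the 2KR-MYB rescue, and SQLE and NPC1 were lower. These 5 had a Benjamini-Hochberg adjusted p under 0.01 in a limma fit on log2(FPKM + 1) across all tested genes, the threshold used throughout. They made up 17.9% of the tested members, beside 13.0% of all tested genes. The share called higher among all tested genes was 5.57%, and the share called lower was 7.42%. With only 28 members, 5 calls are near that background. Leaving out 1 library gave 0 called members without 2KR-MYB replicate 2 or 3, 1 without ANAA-MYB replicate 2, and 2 without 2KR-MYB replicate 1, ANAA-MYB replicate 1 or ANAA-MYB replicate 3. Among all genes 704 were higher and 938 lower, and with upper quartile scaling 949 were higher and 792 lower. With that scaling the members called were 4 higher and 1 lower, because SREBF2 passed (adjusted p = 0.0068) and NPC1 did not (0.012).

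The members lay on both sides of 0. Of the 28, 12 had a log2 difference (2KR-MYB minus ANAA-MYB) above 0 and 16 below 0, with a median of -0.050 beside -0.015 over all tested genes. The differences ranged from -0.29 for DHCR7 to 0.50 for INSIG1, and their median size was 0.17 beside 0.14 over all tested genes. The 3 libraries of one rescue lay fully apart from those of the other for 16 members (57.1%), 8 with 2KR-MYB above and 8 with ANAA-MYB above, beside 44.9% of all tested genes. For each such gene the exact two-sided permutation test gave p = 0.1, the smallest that 3 against 3 libraries allow. The summed level of the 18 enzymes was 704, 737 and 736 FPKM in the 2KR-MYB libraries and 722, 757 and 774 in the ANAA-MYB libraries, which overlapped (exact permutation p = 0.3). As these are bulk RNA values, fewer cells expressing a gene and less RNA per cell cannot be told apart.

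**Figure D2:**
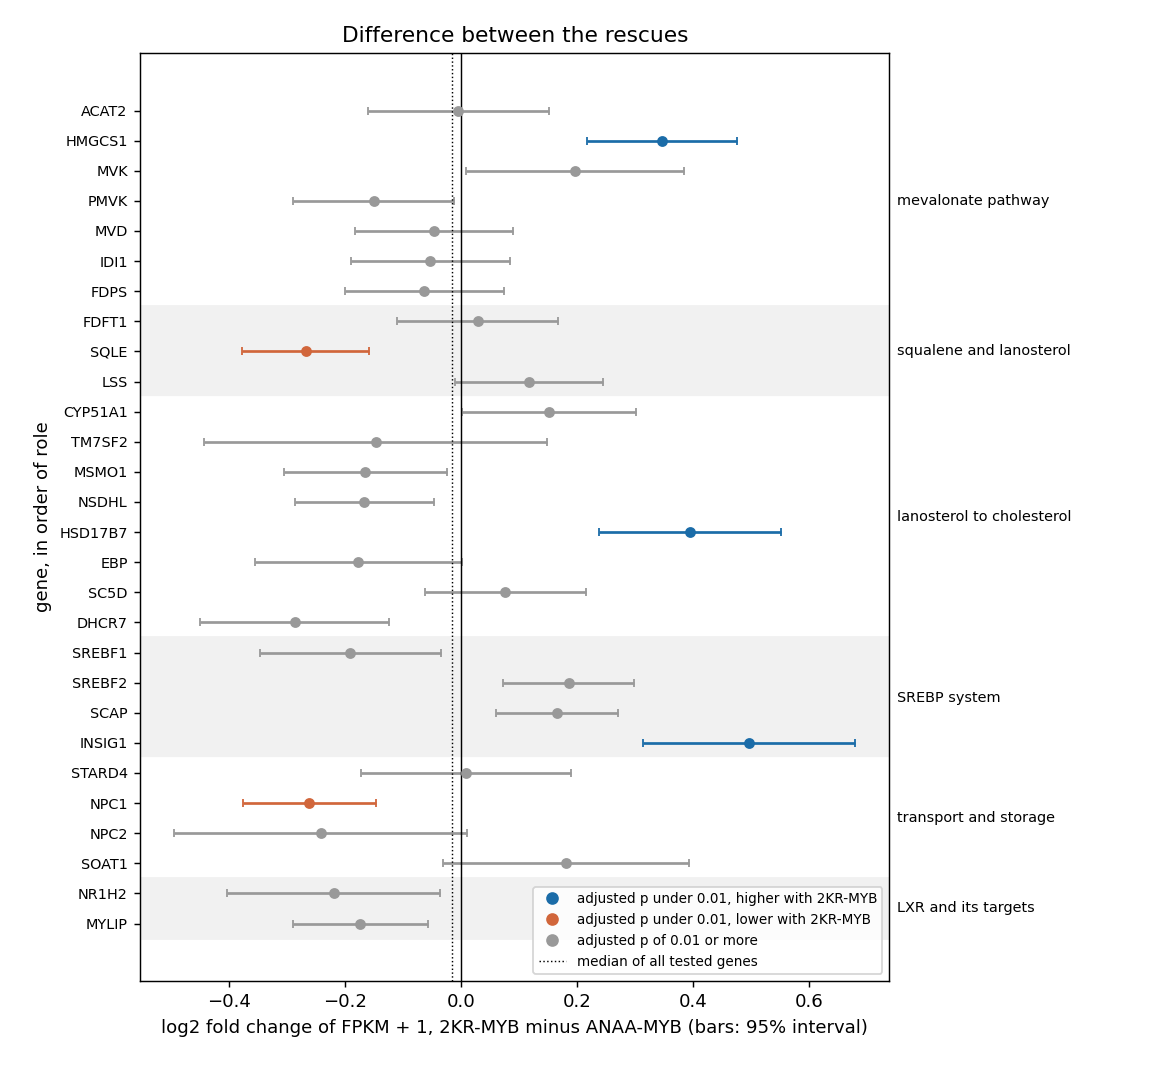
Log2 fold change of FPKM + 1 (2KR-MYB minus ANAA-MYB) for the 28 tested genes by role, with bars for the 95% interval and the dotted line at the median of all tested genes (-0.015). Blue marks HMGCS1, HSD17B7 and INSIG1 (0.35, 0.40 and 0.50), orange marks SQLE and NPC1 (-0.27 and -0.26), and the other 23 are grey.

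In the mevalonate pathway, which runs from acetyl-CoA to farnesyl diphosphate, 1 of 7 enzymes changed (14.3%, beside 13.0% of all tested genes). HMGCS1 (ENSG00000112972, chr5:43287470-43313412 in GRCh38.p14) encodes the cytosolic synthase that makes HMG-CoA, the precursor of mevalonate. Its level was 53.4, 56.7 and 58.2 FPKM in the 2KR-MYB libraries and 42.6, 42.6 and 46.6 in the ANAA-MYB libraries. The lowest 2KR-MYB library thus lay above the highest ANAA-MYB library. The means were 56.1 ± 2.48 and 43.9 ± 2.34 FPKM (SD, n = 3 each), or 27.7% higher, with a log2 difference of 0.35 (SE 0.056, 95% interval 0.22 to 0.48) and an adjusted p of 0.0034 with limma. The call was lost when 2KR-MYB replicate 2 (adjusted p = 0.016), 2KR-MYB replicate 3 (0.012), ANAA-MYB replicate 1 (0.014) or ANAA-MYB replicate 2 (0.016) was left out, with log2 differences from 0.32 to 0.34.

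The other 6 mevalonate enzymes did not pass the test. ACAT2, which condenses acetyl-CoA at the start of the pathway, measured 27.0, 30.0 and 29.6 FPKM in 2KR-MYB libraries, against 26.7, 29.4 and 30.9 in ANAA-MYB libraries. The libraries were interleaved, and the 95% interval of the log2 difference ran from -0.16 to 0.15. MVK, which phosphorylates mevalonate, stood at 10.2, 11.3 and 9.94 FPKM with 2KR-MYB, and at 8.15, 9.08 and 9.91 with ANAA-MYB. All MVK values were higher in the 2KR-MYB libraries, with the closest pair nearly touching. The log2 difference was 0.20 (adjusted p = 0.11).

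PMVK, which adds the next phosphate, gave 10.2, 10.8 and 10.3 FPKM under 2KR-MYB against 11.7, 11.04 and 12.3 under ANAA-MYB. Here the order was turned, with every ANAA-MYB library above every 2KR-MYB library and a log2 difference of -0.15 (adjusted p = 0.10). MVD, the decarboxylase that yields isopentenyl diphosphate, had means of 43.0 ± 2.21 and 44.5 ± 2.44 FPKM (2KR-MYB and ANAA-MYB, SD, n = 3 each). IDI1, the isomerase of that product, had means of 58.7 ± 2.46 and 60.9 ± 4.02 FPKM. FDPS, the farnesyl diphosphate synthase, had means of 95.3 ± 4.63 and 99.7 ± 5.99 FPKM. The libraries overlapped for MVD, IDI1 and FDPS, and their log2 differences were -0.047, -0.053 and -0.064. Their 95% intervals lay between -0.20 and 0.089, so none of the 3 held a difference as large as that of HMGCS1.

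Of the 3 enzymes from farnesyl diphosphate to lanosterol, SQLE changed (33.3%, beside 13.0% of all tested genes). SQLE (ENSG00000104549, chr8:124998505-125022283) encodes squalene epoxidase, a rate-limiting step of the pathway. It was at 70.3, 70.9 and 72.2 FPKM in the 2KR-MYB libraries and at 81.4, 88.3 and 88.0 in the ANAA-MYB libraries. The groups stood well apart, and the 2KR-MYB libraries lay close to each other. Means were 71.1 ± 0.998 and 85.9 ± 3.88 FPKM (SD, n = 3 each), so SQLE fell by 17.2%, with a log2 difference of -0.27 (SE 0.048, 95% interval -0.38 to -0.16, adjusted p = 0.0051 with limma). The call held without ANAA-MYB replicate 1 (adjusted p = 0.0059). It was lost without ANAA-MYB replicate 2 (0.023), ANAA-MYB replicate 3 (0.016), or 2KR-MYB replicate 1 (0.023), replicate 2 (0.022) or replicate 3 (0.013), with log2 differences from -0.28 to -0.25.

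The steps on either side of SQLE did not pass. FDFT1, squalene synthase, measured 93.6, 99.2 and 98.7 FPKM in 2KR-MYB libraries, against 87.5, 98.8 and 99.8 in ANAA-MYB libraries. The values were interleaved, with a log2 difference of 0.028 and a 95% interval from -0.11 to 0.17. LSS, which cyclises squalene epoxide to lanosterol, stood at 23.3, 24.7 and 26.2 FPKM with 2KR-MYB, and at 22.5, 22.5 and 23.1 with ANAA-MYB. LSS thus lay higher in every 2KR-MYB library, opposite to SQLE, but by a log2 difference of 0.12 that missed the threshold (adjusted p = 0.16).

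As HMGCS1, INSIG1 and SQLE are all known SREBP targets but differed in direction here, their ratios within each library were also taken, a choice made after their values were seen. HMGCS1 was at 0.760, 0.800 and 0.806 of the SQLE level in the 2KR-MYB libraries and at 0.523, 0.483 and 0.530 in the ANAA-MYB libraries. For INSIG1 the ratio to SQLE was 0.609, 0.678 and 0.641 with 2KR-MYB and 0.351, 0.397 and 0.375 with ANAA-MYB. That both ratios were higher in every 2KR-MYB library follows from the choice of genes whose libraries lay apart in opposite directions, so the ratios are a description only.

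Between lanosterol and cholesterol, 1 of 8 enzymes changed (12.5%, beside 13.0% of all tested genes), and 5 of the 8 had a log2 difference below 0, as did 6720 of all 12634 tested genes. HSD17B7 (ENSG00000132196, chr1:162790702-162812823) encodes the ketoreductase of sterol demethylation. Its level was 12.7, 13.4 and 13.9 FPKM in the 2KR-MYB libraries and 9.10, 10.3 and 10.3 in the ANAA-MYB libraries, with no overlap. Means were 13.3 ± 0.622 and 9.90 ± 0.694 FPKM (SD, n = 3 each), or 34.6% higher, with a log2 difference of 0.40 (SE 0.068, 95% interval 0.24 to 0.55, adjusted p = 0.0044 with limma). Leaving out any one library lost the call: adjusted p was between 0.011 and 0.019 over 2KR-MYB replicates 1, 2 and 3 and ANAA-MYB replicates 1, 2 and 3, with log2 differences from 0.34 to 0.43.

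MSMO1 and NSDHL act with HSD17B7 in the same demethylation, as the oxidase and the decarboxylating dehydrogenase, and lay on the other side. MSMO1 gave 18.0, 19.7 and 19.8 FPKM under 2KR-MYB against 21.0, 20.9 and 22.9 under ANAA-MYB. NSDHL measured 23.2, 21.8 and 21.8 FPKM in 2KR-MYB libraries, against 24.2, 25.2 and 26.01 in ANAA-MYB libraries. Every ANAA-MYB library was above every 2KR-MYB library for each of these genes, with a log2 difference of -0.17 for each, and neither passed (adjusted p = 0.080 for MSMO1 and 0.048 for NSDHL). Thus of the 3 genes of this step, 1 was called higher with 2KR-MYB and 2 had lower values without a call.

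DHCR7, a reductase of the last step, had the most negative log2 difference of the members. It stood at 46.1, 49.2 and 52.5 FPKM with 2KR-MYB, and at 56.6, 58.7 and 65.7 with ANAA-MYB. No 2KR-MYB library reached the lowest ANAA-MYB library, yet the spread in each group was wide. The log2 difference was -0.29 (95% interval -0.45 to -0.12), and its adjusted p of 0.020 missed the threshold. CYP51A1, the lanosterol demethylase, gave 36.4, 32.9 and 33.0 FPKM under 2KR-MYB against 28.7, 30.3 and 32.8 under ANAA-MYB. Its 2KR-MYB libraries all lay above, the closest pair nearly touching, with a log2 difference of 0.15 (adjusted p = 0.12).

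The remaining 3 enzymes of this stretch overlapped between the rescues. EBP, the sterol isomerase, measured 67.0, 73.6 and 66.7 FPKM in 2KR-MYB libraries, against 81.6, 84.0 and 69.6 in ANAA-MYB libraries (log2 difference -0.18, adjusted p = 0.13). ANAA-MYB replicate 3 was the EBP library that fell among the 2KR-MYB values. SC5D, the desaturase, had means of 18.1 ± 0.734 and 17.2 ± 1.02 FPKM (2KR-MYB and ANAA-MYB, SD, n = 3 each). TM7SF2 stood at 3.25, 4.69 and 4.99 FPKM with 2KR-MYB, and at 5.02, 4.64 and 4.79 with ANAA-MYB, so 2KR-MYB replicate 1 alone was low. Its log2 difference was -0.15, and 0.0059 without that library. Summed over the 8 enzymes, the level was 224, 234 and 230 FPKM with 2KR-MYB and 243, 250.3 and 250.4 with ANAA-MYB. These sums were fully apart (exact permutation p = 0.1, the smallest possible). They weigh abundant genes most, here EBP (means 69.1 with 2KR-MYB and 78.4 with ANAA-MYB) and DHCR7 (49.25 and 60.3). Neither was called, and the called HSD17B7 lay the other way. Sums of the SREBP system were apart in the opposite direction (means 163 and 147), and those of the LXR genes in the same one (39.4 and 45.5). Sums overlapped for the mevalonate pathway (means 303 and 299), squalene and lanosterol (193 and 204), and transport and storage (94.9 and 104).

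The SREBP system held the largest difference of all members, and each of its 4 genes had libraries fully apart, as 44.9% of all tested genes did. INSIG1 (ENSG00000186480, chr7:155297878-155310235), the sterol-dependent anchor of SCAP, was at 42.8, 48.1 and 46.3 FPKM in the 2KR-MYB libraries and at 28.6, 35.0 and 33.0 in the ANAA-MYB libraries. The lowest 2KR-MYB library lay well above the highest ANAA-MYB library. Means were 45.7 ± 2.70 and 32.2 ± 3.27 FPKM (SD, n = 3 each), or 42.0% higher, with a log2 difference of 0.50 (SE 0.079, 95% interval 0.31 to 0.68, adjusted p = 0.0032 with limma). The call was lost without 2KR-MYB replicate 2 (adjusted p = 0.015), 2KR-MYB replicate 3 (0.011) or ANAA-MYB replicate 3 (0.011), with log2 differences from 0.46 to 0.52.

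SREBF2, which encodes the SREBP that mainly drives cholesterol genes, and SCAP lay on the side of INSIG1 without passing. SREBF2 gave 38.1, 39.8 and 41.3 FPKM under 2KR-MYB against 33.8, 35.1 and 35.5 under ANAA-MYB, a log2 difference of 0.19 (95% interval 0.071 to 0.30, adjusted p = 0.027). It was called with upper quartile scaling, as given above, and with quantile normalization (adjusted p = 0.0061). SCAP measured 35.5, 35.6 and 34.7 FPKM in 2KR-MYB libraries, against 31.8, 31.8 and 30.3 in ANAA-MYB libraries, a log2 difference of 0.17 (adjusted p = 0.030). SREBF1, whose products mainly drive fatty acid synthesis, lay on the other side. It stood at 39.5, 44.6 and 42.5 FPKM with 2KR-MYB, and at 51.7, 48.7 and 44.7 with ANAA-MYB, a log2 difference of -0.19 (adjusted p = 0.071). The SREBF1 groups nearly touched at the closest pair.

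Of the 4 genes of intracellular transport and storage, NPC1 changed (25%, beside 13.0% of all tested genes). NPC1 (ENSG00000141458, chr18:23506184-23586506) encodes the lysosomal membrane protein that exports cholesterol taken up with lipoproteins. It was at 15.0, 15.96 and 15.5 FPKM in the 2KR-MYB libraries and at 19.0, 18.6 and 18.7 in the ANAA-MYB libraries, apart by more than the spread of either group. Means were 15.5 ± 0.491 and 18.7 ± 0.219 FPKM (SD, n = 3 each), so NPC1 fell by 17.5%, with a log2 difference of -0.26 (SE 0.050, 95% interval -0.38 to -0.15, adjusted p = 0.0068 with limma). Without any one of 2KR-MYB replicates 1, 2 and 3 or ANAA-MYB replicates 1, 2 and 3 the call was lost, with adjusted p between 0.017 and 0.029 and log2 differences from -0.28 to -0.24. RMC1, which overlaps NPC1 on the opposite strand, had means of 22.2 and 23.6 FPKM (log2 difference -0.082), and the libraries were strand-specific, but whether the counting used the strand is not given in the sources.

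NPC2, the soluble partner of NPC1, gave 45.4, 40.1 and 42.9 FPKM under 2KR-MYB against 56.1, 55.6 and 41.9 under ANAA-MYB. ANAA-MYB replicate 3 lay among the 2KR-MYB libraries and the other 2 well above them. NPC2 did not pass (log2 difference -0.24, adjusted p = 0.14), and without ANAA-MYB replicate 3 it did (-0.38, adjusted p = 0.0077). SOAT1, which esterifies cholesterol for storage, measured 19.3, 22.6 and 21.0 FPKM in 2KR-MYB libraries, against 17.5, 21.0 and 16.8 in ANAA-MYB libraries (log2 difference 0.18, adjusted p = 0.18). STARD4, a cytosolic sterol carrier, had means of 15.7 ± 1.56 and 15.5 ± 0.840 FPKM (SD, n = 3 each). The libraries of SOAT1 and STARD4 overlapped, and the 95% interval for STARD4 was -0.17 to 0.19.

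Neither tested gene of the LXR arm passed, while 13.0% of all tested genes did. NR1H2, the receptor, stood at 18.7, 22.0 and 19.9 FPKM with 2KR-MYB, and at 23.6, 25.8 and 21.8 with ANAA-MYB, overlapping at 1 library of each group (log2 difference -0.22, adjusted p = 0.076). MYLIP, the ubiquitin ligase for lipoprotein receptors, gave 19.4, 19.0 and 19.2 FPKM under 2KR-MYB against 20.8, 22.1 and 22.4 under ANAA-MYB. Its groups were apart, with a log2 difference of -0.17 (adjusted p = 0.037). At a threshold of 0.05 in place of 0.01, 10 members would have passed, with MYLIP, DHCR7, NSDHL, SREBF2 and SCAP beside the 5 named, and 3402 of all tested genes.

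Part of the spread was shared between members. The lowest of the 3 2KR-MYB libraries was replicate 1 for 19 of the 28 tested members (67.9%), beside 41.8% of all tested genes, and the lowest ANAA-MYB library was replicate 1 for 14 members (50%), beside 38.3%. The members are therefore not independent readings of a difference between the rescues. Without 2KR-MYB replicate 1, 2 members were called, namely HMGCS1 and INSIG1.

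Because each mutant is a single-cell clone, each member was set beside its chromosomal neighbours, up to 25 tested genes on each side, as a description without a test. For HMGCS1, HSD17B7, SQLE and NPC1 the median log2 difference of the neighbours was near 0, at 0.039, -0.046, 0.014 and 0.054. Of the 50 neighbours of each, 9, 8, 4 and 12 were called, beside 13.0% of all tested genes. INSIG1 lies near the end of chromosome 7, where the median of 37 neighbours was 0.22 and 14 of them were called. Of these 37, 13.5% were below 0, while 6720 of all 12634 tested genes were. The INSIG1 difference exceeded that median by 0.28, and with 10 genes on each side by the same 0.28. The X-linked EBP (-0.18) and NSDHL (-0.17) lay near their neighbours, whose medians were -0.17 and -0.14, with 14 and 16 of 50 called. With 10 genes on each side the medians were -0.23 and -0.31, and NSDHL then lay 0.14 above its neighbours. NR1H2 (-0.22) also had neighbours below 0, with a median of -0.16 and 10 of 50 called. FDFT1 was the reverse case, since it stood at 0.028 while its 49 neighbours on chromosome 8 had a median of -0.24 and 22 of them were called. With 10 genes on each side that median was -0.098. The number of DNA copies in the clones was not measured, and its part in these values was not tested.

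Some members overlap genes on the other strand. The libraries were prepared strand-specifically, which keeps such genes apart where the counting uses the strand. ACAT2 overlaps the far more abundant TCP1, which had means of 569.7 and 491 FPKM (2KR-MYB and ANAA-MYB). MVK overlaps MMAB, which had means of 14.4 and 18.4 FPKM and a log2 difference of -0.33 (adjusted p = 0.016), opposite to that of MVK. INSIG1-DT, the divergent transcript beside INSIG1, was at means of 1.27 and 0.855 FPKM. Whether reads of these pairs were shared was not tested.

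Other genes of the same lipid pathways, in 4 lists of 51 genes in all, gave 4 calls among 46 tested (8.70%, beside 13.0% of all tested genes), 1 higher and 3 lower with 2KR-MYB. Of 12 genes of fatty acid synthesis under SREBP, 1 was called. It was FADS1, a fatty acid desaturase, at 58.5, 61.2 and 60.3 FPKM with 2KR-MYB and at 69.8, 82.4 and 77.8 with ANAA-MYB (log2 difference -0.35, adjusted p = 0.0060 with limma). The median of that list was 0.036. None of the 12 genes of isoprenoid branches (median -0.066) passed in limma, with 4 at an unadjusted p under 0.05. None of the 12 SREBP proteases and genes of sterol-regulated degradation (median -0.054) passed either, with 3 at such a p. Among all 12634 tested genes, 4981 were at an unadjusted p under 0.05 in the same fit.

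Of 15 further genes of cholesterol transport and lipoprotein uptake, 10 were tested and 3 called (13.0% of all tested genes were), 1 higher and 2 lower with 2KR-MYB. OSBP, an oxysterol-binding protein that transfers cholesterol to the Golgi, measured 39.5, 42.7 and 41.2 FPKM in 2KR-MYB libraries, against 33.3, 34.7 and 34.1 in ANAA-MYB libraries, a log2 difference of 0.27 (adjusted p = 0.0054 with limma). SCARB1, the receptor for high-density lipoprotein, gave 44.4, 47.0 and 41.3 FPKM under 2KR-MYB against 54.0, 53.4 and 61.0 under ANAA-MYB, a log2 difference of -0.34 (adjusted p = 0.0094). SCARB1 was lower in every 2KR-MYB library than in any ANAA-MYB library, as NPC1 was, and OSBP was higher.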

How the data were processed

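RNA-Seq of K562 rescue clones was analysed in 6 libraries, 3 per rescue. Per the labels and the submitters' processing notes, strand-specific TruSeq poly(A) libraries were read as 150 bp pairs, and the tools named are bcl2fastq 2.18.0.12, Trimmomatic 0.36, TopHat2 2.1.1, Cufflinks and Cuffdiff 2.2.1, with the build GRCh38. The sources used here do not give the annotation, whether the counting used the strand, or how the libraries were scaled to each other. The values deposited by the authors are FPKM for each gene in each replicate. The 12 other columns of per-sample values were not used, so no control or wild-type level stands beside these values. Depth is unknown: at most 7.4% of ratios under 0.5 FPKM lay on one step (within 1%), so no reads were recovered and no interval for counting error is given.

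Of 58288 gene IDs, 40954 matched a symbol. Gene positions were found in RefSeq (GRCh38.p14) by symbol, for 11539 of the 12634 tested genes, and promoters likewise; some member promoters were not analysed here. Genes whose mean reached 1 FPKM were tested on log2(FPKM + 1), a scale that understates the change of low genes, with limma 3.58.1 (R 4.3.3; rescue as the one factor, trended empirical Bayes, Benjamini-Hochberg adjustment over all tested genes, threshold 0.01). For single values, FPKM was permuted exactly (two-sided) with scipy 1.17.1. Figures were drawn with Python 3.11.15, numpy 2.4.6 and matplotlib 3.10.9. The limma fit was tested on simulated data with log2 changes larger than that of any member. Smaller changes were not simulated.

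Every member is named, as are at most 5 called genes of each other list. Some genes of the other lists are counted but not reported here by name. The members, the lists and the alternatives were chosen with earlier results of these data known. The alternatives were a pseudocount of 0.1, no filter and a filter at 5 FPKM, upper quartile scaling, quantile normalization, blocking on the replicate number, omission of each library, a threshold of 0.05, and neighbours over 10 genes on each side.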

Additional observations from a re-analysis of the deposited data

How the results depend on the processing

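Over the alternatives that keep the threshold, 335 values of single members were recomputed: 288 kept their direction and side of the threshold, 32 of the 5 called members lost the call, 4 of 3 other members gained it (DHCR7 with the replicate block, SREBF2 with both scalings, NPC2 without ANAA-MYB replicate 3), and 11 of 5 members turned in sign. The called members kept their sign under each alternative. As the libraries of the rescues lay fully apart for each of them, leaving out 1 library could not turn the sign. The filters and the replicate block leave the log2 difference unchanged. Log2 differences were 0.32 to 0.40 for HMGCS1, 0.42 to 0.56 for INSIG1, 0.34 to 0.44 for HSD17B7, -0.31 to -0.21 for SQLE and -0.28 to -0.22 for NPC1.

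Without a filter on low values 942 genes were called among 28536, and 0 members in limma. In that fit 14 members, and 6838 of the 28536 genes, had an unadjusted p under 0.05. More genes were then tested. At a threshold of 0.05, 3402 genes and 10 members were called. Leaving out each library in turn gave 852 to 1204 genes and 0 to 2 members, from fewer samples. The members called were 0 without 2KR-MYB replicate 2 or 3, 1 without ANAA-MYB replicate 2 and 2 without any other. Without 2KR-MYB replicate 2, 15 members and 4347 of 12631 genes had an unadjusted p under 0.05 in limma. Without 2KR-MYB replicate 3 these were 13 members and 4622 of 12597 genes. With the replicate number as a replicate block, 1089 genes and 4 members were called, SQLE and NPC1 being lost and DHCR7 gained. Same-numbered libraries did not deviate together over the tested genes (correlations of -0.052, -0.035 and -0.003). Whether they shared a culture or a batch is not given in the sources, and these correlations cannot show it.

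For 5 uncalled members the sign turned, and the cause was not tested. ACAT2 (-0.0051) became 0.037 with upper quartile scaling, 0.026 with quantile normalization, and 0.040, 0.0046 and 0.041 without 2KR-MYB replicate 1, ANAA-MYB replicate 2 and ANAA-MYB replicate 3 (range over left-out libraries -0.061 to 0.041). MVD (-0.047) became 0.0052 with quantile normalization, FDFT1 (0.028) became -0.032 without ANAA-MYB replicate 1 (range to 0.062), and TM7SF2 (-0.15) became 0.0059 without 2KR-MYB replicate 1 (range from -0.24); with a filter at 5 FPKM TM7SF2 gave no value. STARD4 (0.0083) became -0.0054, -0.052 and -0.034 without 2KR-MYB replicate 2, 2KR-MYB replicate 3 and ANAA-MYB replicate 2 (range to 0.083). Depth, which is not known, limits low values such as those of ABCA1 and TM7SF2.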

Other observations

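One transport gene under the filter on low values had levels that stood apart, and it was picked out after its values were seen. LIPA, the lysosomal acid lipase that frees cholesterol from lipoprotein esters before NPC1 and NPC2 export it, was at 1.18, 0.810 and 1.26 FPKM in the 2KR-MYB libraries and at 0.0998, 0.179 and 0.153 in the ANAA-MYB libraries. The main limma fit left LIPA out, since its mean lay under 1 FPKM, and its value in the fit without a filter is not reported here. LIPA was higher in each of the 3 2KR-MYB libraries than in any ANAA-MYB library. Among all tested genes, 44.9% had libraries apart in either direction.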
